A study of Homo sapiens with 4 samples.

Results

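The nuclear-encoded machinery that copies and transcribes the mitochondrial genome was followed in MDA-MB-468, a human breast cancer cell line labelled triple negative, after exposure to MS1943, which the series title names as a degrader of EZH2, the histone methyltransferase of Polycomb repressive complex PRC2. The 10 genes were taken by symbol from a named list, out of 56865 genes summed from the deposited transcript estimates: TFAM, TFB1M, TFB2M, POLRMT, TEFM, POLG, TWNK, LRPPRC, MTPAP and PNPT1. Cells at passage 12 were given MS1943 at 5 µM over 3 days (2 libraries) or DMSO, the solvent control (2 libraries, with no time of its own in the labels), and poly(A) RNA was sequenced. MDA-MB-468 is a single established line, so the libraries share its genotype (some labels spell it MDA-MD-468), and the labels give duplicate dishes without saying whether they came from separate cultures; p-values then measure only the spread between these libraries, which may be technical.

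Human mitochondria carry their own circular genome, but every protein that copies it, transcribes it and tails or degrades its RNA is made from nuclear genes. The DNA polymerase POLG and the helicase TWNK form the core of the replication fork. The RNA polymerase POLRMT starts transcription with the DNA-bending protein TFAM and the initiation factor TFB2M, and TEFM lets it elongate; TFAM also coats and packages the genome. LRPPRC stabilises the transcripts, MTPAP adds their poly(A) tails and PNPT1 degrades them, while TFB1M, a relative of TFB2M, methylates the small ribosomal RNA. Nuclear respiratory factor NRF1 and the ETS factor GABP are known activators of several of these genes, TFAM among them.

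The libraries held 69878745 and 47564377 estimated reads with MS1943 and 64720699 and 71378893 with DMSO. All 8 epithelial and basal markers were detected in every library, EPCAM at 270 to 304 CPM among them, and their summed level was 15292 to 16321 CPM with MS1943 and 11149 to 11156 CPM with DMSO. They went both ways with MS1943. KRT5 (log2 fold change 1.86), KRT17 (1.66) and EGFR (0.58) were called higher. KRT8 (-0.66), KRT19 (-0.27) and CDH1 (-0.24) were called lower, and EPCAM and KRT18 were not called. Of the leukocyte markers, PTPRC, CD3E and LYZ stayed at or below 0.150 CPM in every library, whereas CD68, a lysosomal glycoprotein gene that macrophages express strongly, stood at 32.0 and 29.7 CPM with MS1943 against 1.08 and 0.826 CPM with DMSO, and CD14 at 86.2 and 87.4 CPM with MS1943 against 163 and 147 CPM with DMSO. The 8 fibroblast and endothelial markers summed to 28.96 to 32.5 CPM with MS1943 and 22.3 to 23.0 CPM with DMSO, nearly all of it COL1A1. The part of these markers in the results was not tested. CPM here is counts per 1e6 reads of the library after TMM scaling, which corrects for a few highly expressed genes taking up reads. EZH2 itself stood at 104 and 108 CPM with MS1943 and at 126 and 117 CPM with DMSO (log2 fold change -0.19 ± 0.06 SE, edgeR adjusted p = 0.00605). In bulk RNA, fewer cells making a transcript and less of it per cell cannot be told apart.

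Because several of these genes are textbook targets of NRF1, the sequence around their RefSeq starts was read first. RefSeq promoter windows (GRCh38.p14, from 250 bases before to 50 bases after the gene start) were found for 9 of the 10 genes. TWNK was not matched. Upstream here means upstream of the RefSeq start. The stretches shown for TFAM, POLRMT, TFB2M and MTPAP lie inside the GENCODE gene spans given further on, which begin further upstream. Other starts of a gene were not searched. The letters GCGCATGC, which overlap their own reverse complement in the palindrome bound by NRF1, or their reverse complement, occurred in the windows of 4 genes, TFB1M, TFB2M, POLRMT and MTPAP, against 3.05% of all 35116 windows. In TFB1M and in POLRMT a forward and a reverse match overlap and so complete the palindrome. Of these 4 genes, TFB1M, POLRMT and MTPAP were called higher with MS1943 and TFB2M was not called. Among the windows without the letters, POLG, LRPPRC and PNPT1 were called higher, TEFM was not called and TFAM was called lower. A link between the letters and the direction of change was not tested. The stretches of TFB1M, POLRMT, TFB2M and MTPAP are shown with that of TFAM, the only one of the 10 genes called lower. Each is written 5′ to 3′ on the strand of its gene and lies on chr6:155314581-155314640 (TFB1M, minus strand), chr19:633538-633597 (POLRMT, minus strand), chr1:246566262-246566321 (TFB2M, minus strand), chr10:30349313-30349372 (MTPAP, minus strand) and chr10:58385310-58385409 (TFAM, plus strand). Capitals mark the NRF1 letters in the first 4 and the letters GGGCGG of SP factors, in either orientation, in TFAM.
TFB1M: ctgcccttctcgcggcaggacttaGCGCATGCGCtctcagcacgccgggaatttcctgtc
POLRMT: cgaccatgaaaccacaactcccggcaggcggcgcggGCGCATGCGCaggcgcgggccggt
TFB2M: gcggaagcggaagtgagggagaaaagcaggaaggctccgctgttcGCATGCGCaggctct
MTPAP: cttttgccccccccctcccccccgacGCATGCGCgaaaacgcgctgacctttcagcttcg
TFAM: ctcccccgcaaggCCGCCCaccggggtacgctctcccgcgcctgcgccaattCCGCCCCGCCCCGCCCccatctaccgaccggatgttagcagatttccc

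The TFAM window held no exact match to the NRF1 letters and 5 matches to GGGCGG, of which 3 lie in a run between 48 and 33 bases upstream and overlap at their ends. The search took exact letters only. The stretch shown for TFAM holds gcgcctgcgc, which differs in a single letter from GCGCATGCGC, the palindrome completed in TFB1M and POLRMT. Near matches were not searched for in any window. SP matches are common, being found in 6 of the 9 windows and in 45% of all windows. The ETS core CCGGAAGT occurred in POLRMT, 94 to 87 bases upstream, and in TEFM across the start itself (4.14% of all windows). AAGATGGC of YY1, the E-box CACGTG, TGACGTCA of CREB and ATF factors and the ATF4 composite letters TGATGCAA were in none of the 9 windows, against 2.89%, 7.26%, 1.85% and 0.866% of all windows. A match is a description of letters and says nothing on binding in these cells.

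**Figure D1:**
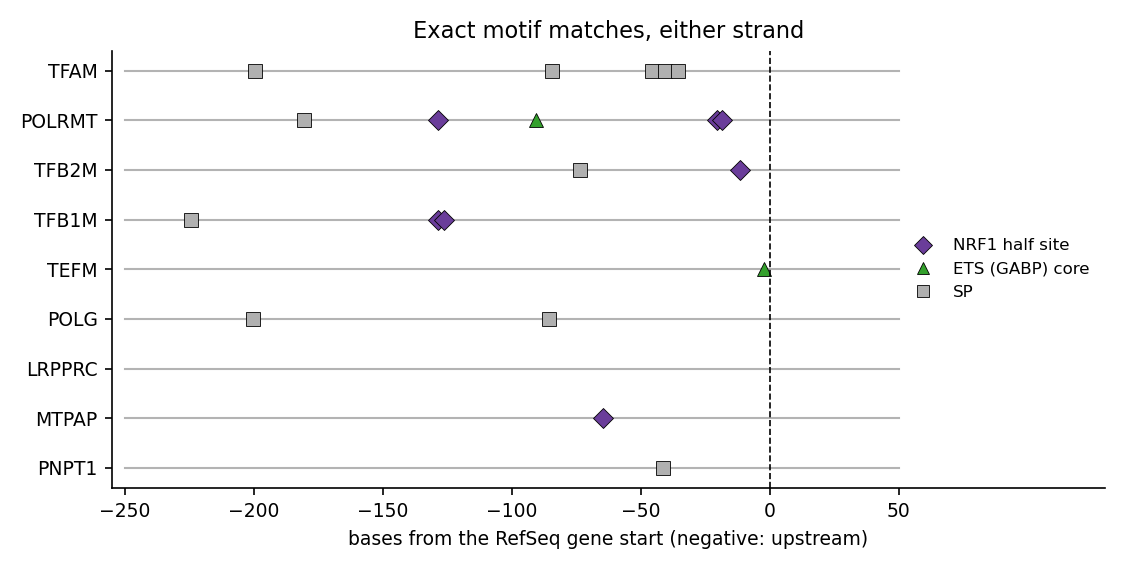
Positions of exact motif matches on either strand (x axis, bases from the RefSeq gene start) in the promoter windows of 9 genes, one line per gene. Diamonds, the NRF1 letters, stand in TFB1M, TFB2M, POLRMT and MTPAP, and the TFAM line carries 5 squares, the SP motif, and no diamond.

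TFAM fell and 7 of the other genes of the machinery rose after MS1943. By edgeR's quasi-likelihood F test, with p-values adjusted by Benjamini-Hochberg over 19358 tested genes, 8 of the 10 genes passed an adjusted p of 0.05, against 59.3% of all tested genes. Of the 10, 7 were called higher (background 30.0%), 1 was called lower (background 29.4%) and 2, TFB2M and TEFM, were not called. All 10 genes passed the filter on low counts. The MS1943 libraries lay wholly outside the DMSO range in 9 of the 10, against 78.3% of all tested genes. The changes were small: the median log2 fold change (MS1943 over DMSO) was 0.27 over the 10 genes and -0.01 over all tested genes, and the median size regardless of sign was 0.31 against 0.41. Scaling by total reads, without TMM, gave a median of -0.12 over all genes and a share of higher calls of 39.8%, against 50.5% with TMM, so every direction here holds relative to TMM; TFAM stayed lower and 6 genes stayed higher under it, with POLRMT lost.

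**Figure D2:**
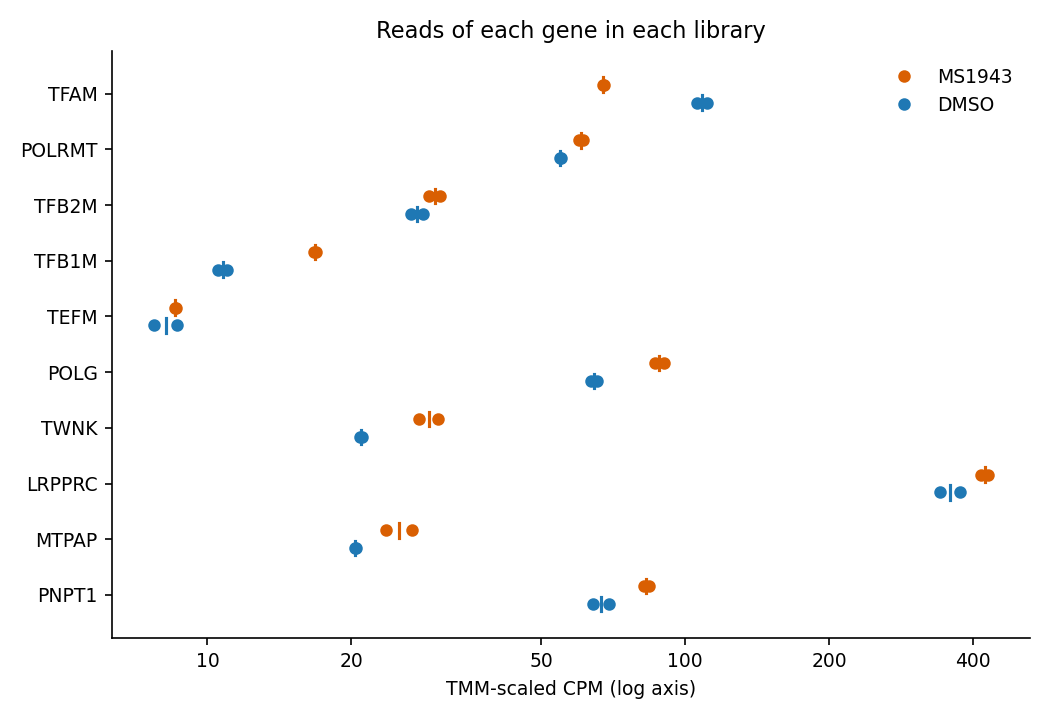
TMM-scaled CPM (x axis, log scale) of each gene in each library (points) with the mean of the 2 libraries of a group (short line), MS1943 above DMSO. TFAM is the gene whose MS1943 points lie left of its DMSO points; in TEFM the points of the groups overlap.

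TFAM (ENSG00000108064, hg38 chromosome 10, 58385022 to 58399221), which both starts transcription and packages the mitochondrial genome, had 67.2 and 67.7 CPM in the MS1943 libraries and 111 and 106 CPM in the DMSO libraries. Both MS1943 libraries lay far below both DMSO libraries, and the gap was many times the difference within either pair. The log2 fold change was -0.68 ± 0.05 (SE; 95% interval -0.80 to -0.57, adjusted p = 2.48e-09), a level 0.62 of that with DMSO. Of all tested genes, 15.3% had a lower fold change.

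The fall of TFAM was shared by its main transcripts. TFAM-201, the 973-base coding transcript, stood at 33.8 and 34.2 TPM with MS1943 and at 59.7 and 59.6 TPM with DMSO, where TPM is Salmon's abundance per transcript length. TFAM-204, which contains all 973 bases of TFAM-201 and runs on to 5414 bases, stood at 11.1 and 11.0 TPM with MS1943 and at 20.3 and 19.4 TPM with DMSO. Both transcripts were thus lower in every MS1943 library, and TFAM-201 made up 64.1% and 63.6% of the gene's TPM with MS1943 and 66.6% and 66.4% with DMSO. The other annotated forms, TFAM-202 and TFAM-203, were below 9 TPM and overlapped between the groups. No other annotated gene overlaps TFAM, and its processed pseudogenes TFAMP1 and TFAMP2 had 0 reads in all libraries.

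POLRMT (ENSG00000099821, chromosome 19, 617224 to 633604), the mitochondrial RNA polymerase, had 61.1 and 60.02 CPM with MS1943 and 54.9 and 54.6 CPM with DMSO. The groups did not overlap, but the difference was small (log2 fold change 0.15 ± 0.05, adjusted p = 0.0274). That call is not stable: it was lost under 7 of 12 alternative settings, among them leaving out DMSO replicate 2 (adjusted p = 0.0628), MS1943 replicate 1 (adjusted p = 0.163) or MS1943 replicate 2 (adjusted p = 0.0782). In TPM, POLRMT stood at 24.4 and 23.2 with MS1943 and at 23.0 and 25.2 with DMSO, which overlap. The ratio of TFAM to POLRMT, both in TPM, was 2.24 ± 0.12 with MS1943 and 3.73 ± 0.24 with DMSO (SD, n = 2 each).

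TFB2M (ENSG00000162851, chromosome 1, 246540560 to 246566324), which melts the promoter for POLRMT, had 29.2 and 30.6 CPM with MS1943 and 28.2 and 26.6 CPM with DMSO. It was not called (log2 fold change 0.12 ± 0.06, 95% interval -0.01 to 0.26, adjusted p = 0.110). The elongation factor gene TEFM (ENSG00000172171, chromosome 17, 30897336 to 30906820) had 8.58 and 8.57 CPM with MS1943 and 8.64 and 7.73 CPM with DMSO. Its groups overlap, and its interval, -0.14 to 0.27, leaves room for a change in either direction (log2 fold change 0.07 ± 0.10, adjusted p = 0.581). TEFM was also hard to read by transcript: TEFM-202, a 559-base form annotated with a retained intron, took 52.6% and 48.7% of the gene's TPM with MS1943 and 50.3% and 46.2% with DMSO. Its coding forms held 25.9% and 24.0% with MS1943 and 26.2% and 25.2% with DMSO. On the other strand, TEFM-204 shares 542 exonic bases with the antisense gene ENSG00000275185, and TEFM-205 shares 301 with ADAP2. The kit does not mark strand, and the part of their reads in the TEFM result was not tested.

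TFB1M (ENSG00000029639, chromosome 6, 155257509 to 155314493), the ribosomal RNA methyltransferase, rose by the largest amount of the 10. It had 16.7 and 16.9 CPM with MS1943 and 11.01 and 10.5 CPM with DMSO, with no overlap (log2 fold change 0.64 ± 0.08, 95% interval 0.48 to 0.81, adjusted p = 7.71e-07). Of all tested genes, 84.5% had a lower fold change. The ratio of TFB1M to its relative TFB2M, both in TPM, was 1.11 ± 0.03 with MS1943 and 0.68 ± 0.03 with DMSO (SD, n = 2 each).

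The rise of TFB1M had a part in coding RNA and a part in short RNA. The coding transcript TFB1M-201 stood at 16.5 and 16.3 TPM with MS1943 and at 12.4 and 11.9 TPM with DMSO. TFB1M-202, a 474-base transcript of 2 exons annotated without a coding sequence, stood at 5.89 and 6.61 TPM with MS1943 and at 1.31 and 1.59 TPM with DMSO, with no overlap between groups. The share of TFB1M-201 in the gene's TPM was accordingly lower with MS1943, at 64.3% and 58.3%, than with DMSO, at 77.3% and 70.7%. With only protein-coding transcripts summed, TFB1M was still called higher, at a log2 fold change of 0.57 (adjusted p = 0.000109). The kit does not mark strand; TFB1M-201 shares 215 exonic bases with TIAM2 on the opposite strand, TFB1M-202 shares none, and TIAM2 itself was called higher at 6.57 and 7.58 CPM with MS1943 against 5.42 and 5.33 CPM with DMSO. The part of TIAM2 reads in the TFB1M result was not tested.

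**Figure D3:**
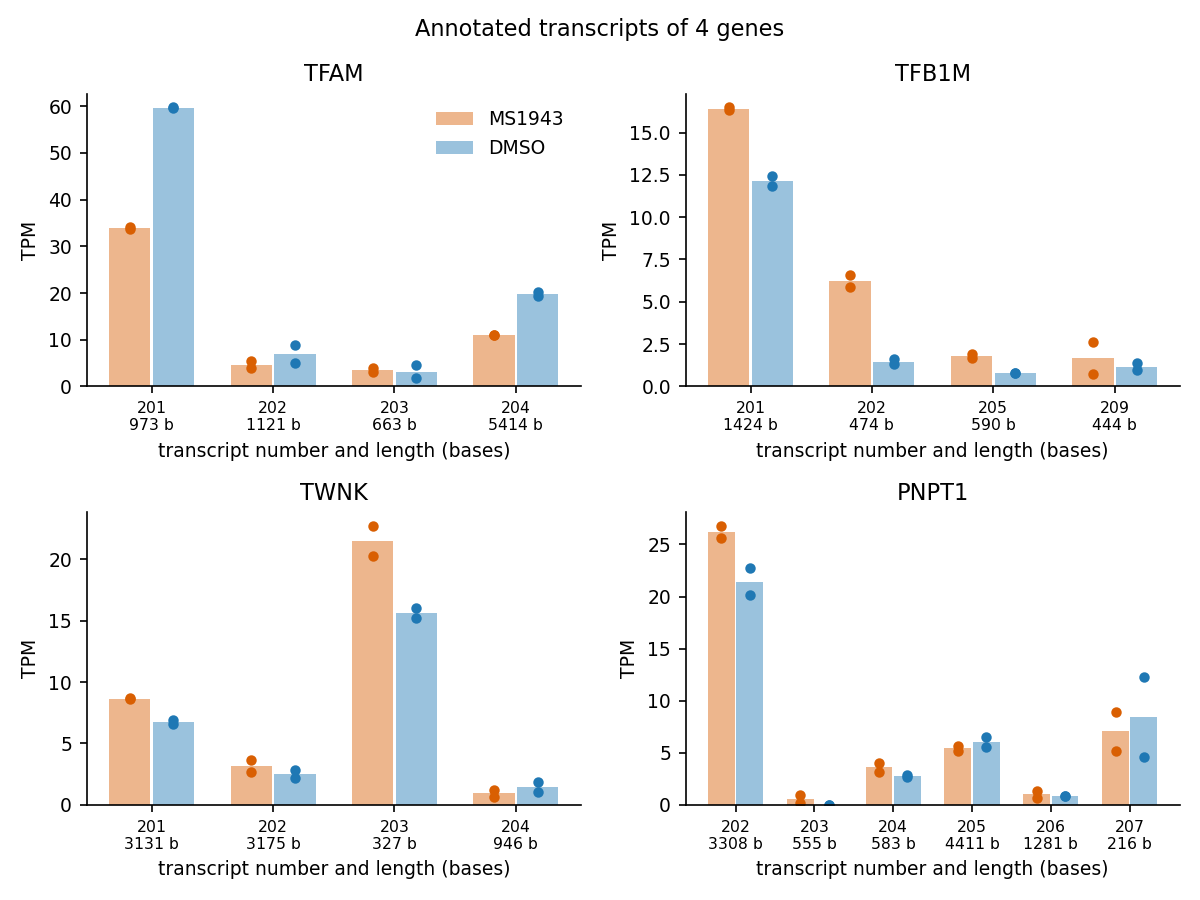
TPM (y axis) of the annotated transcripts of TFAM, TFB1M, TWNK and PNPT1 with a group mean of at least 0.5 TPM; bars are means of 2 libraries, points the libraries, MS1943 left of DMSO. TFAM-201 and TFAM-204 are lower with MS1943, and TFB1M-202 is several times higher.

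Both core genes of the replication fork rose. POLG (ENSG00000140521, chromosome 15, 89305198 to 89334861), the catalytic subunit of the mitochondrial DNA polymerase, had 90.2 and 86.3 CPM with MS1943 and 63.4 and 65.5 CPM with DMSO (log2 fold change 0.45 ± 0.06, adjusted p = 7.61e-07). TWNK (ENSG00000107815, chromosome 10, 100987367 to 100994401), the Twinkle helicase, had 30.4 and 27.7 CPM with MS1943 and 21.1 and 20.8 CPM with DMSO (log2 fold change 0.47 ± 0.07, adjusted p = 6.51e-06). In both genes the MS1943 libraries lay above the DMSO libraries and the 95% intervals overlapped widely, 0.34 to 0.57 for POLG and 0.33 to 0.62 for TWNK. Relative to these genes TFAM was lower with MS1943. TFAM over TWNK, in TPM, was 1.56 ± 0.0018 with MS1943 and 3.41 ± 0.04 with DMSO (SD, n = 2 each). Most of the TWNK TPM belongs to a 327-base form with 78 to 120 estimated reads per library. The level of this ratio depends on that form, and its SD does not cover read assignment. TFAM over POLG was 1.72 ± 0.08 with MS1943 and 3.55 ± 0.17 with DMSO (SD, n = 2 each).

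POLG-202, a coding transcript of 4487 bases, stood at 16.1 and 16.8 TPM with MS1943 and at 11.6 and 13.9 TPM with DMSO. POLG-201, of 4500 bases, stood at 9.69 and 7.83 TPM with MS1943 and at 7.56 and 6.48 TPM with DMSO, so neither overlapped between groups. The 3 coding transcripts of POLG made up 82.5% ± 1.63 of the gene's TPM with MS1943 and 78.1% ± 0.45 with DMSO (SD, n = 2). Transcripts of POLG annotated for nonsense-mediated decay, the pathway that removes RNAs with a premature stop, held 9.89% ± 1.20 with MS1943 and 13.4% ± 0.07 with DMSO. POLG shares up to 431 exonic bases per transcript with FANCI on the other strand, and FANCI, a Fanconi anaemia repair gene, went the other way, at 56.2 and 54.2 CPM with MS1943 against 98.6 and 98.2 CPM with DMSO; the part of FANCI reads in the POLG result was not tested. For TWNK, a 327-base form that lies wholly within the full-length transcript took 59.8% and 65.6% of the gene's TPM with MS1943 and 58.1% and 60.5% with DMSO. The full-length TWNK-201 stood at 8.71 and 8.61 TPM with MS1943 and at 6.90 and 6.57 TPM with DMSO, which do not overlap. TWNK-202, a slightly longer coding form, stood at 3.645 and 2.665 TPM with MS1943 and at 2.177 and 2.839 TPM with DMSO, which overlap.

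The genes that stabilise, tail and degrade mitochondrial RNA, LRPPRC, MTPAP and PNPT1, rose 1.18-fold to 1.24-fold in the sum of their transcripts. LRPPRC (ENSG00000138095, chromosome 2, 43886508 to 43996005), the RNA stabiliser, had 417 and 430.4 CPM with MS1943 and 376 and 341 CPM with DMSO (log2 fold change 0.24 ± 0.06, adjusted p = 0.00208). The DMSO pair was spread more widely than the MS1943 pair, and the groups did not overlap. MTPAP (ENSG00000107951, chromosome 10, 30309801 to 30374448), the mitochondrial poly(A) polymerase, had 23.6 and 26.8 CPM with MS1943 and 20.3 and 20.5 CPM with DMSO (log2 fold change 0.30 ± 0.07, adjusted p = 0.00134). MTPAP-202, an 816-base coding form, stood at 6.02 and 5.79 TPM with MS1943 and at 2.89 and 4.22 TPM with DMSO, while the 5601-base MTPAP-201 stood at 4.77 and 5.62 TPM with MS1943 and at 4.73 and 4.74 TPM with DMSO. MTPAP-201 shares 1120 exonic bases with an antisense gene, ENSG00000285824, on the other strand. The part of that gene's reads in the MTPAP result was not tested.

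PNPT1 (ENSG00000138035, chromosome 2, 55634265 to 55693910), the polynucleotide phosphorylase of the mitochondrial degradosome, had 82.1 and 83.8 CPM with MS1943 and 69.4 and 64.1 CPM with DMSO. In CPM the groups did not overlap (log2 fold change 0.31 ± 0.06, edgeR adjusted p = 9.16e-05). In TPM, PNPT1 stood at 44.6 and 43.7 with MS1943 and at 44.4 and 35.1 with DMSO, which overlap. Its 3308-base transcript, which the annotation classes as a target of nonsense-mediated decay, stood at 25.7 and 26.8 TPM with MS1943 and at 22.7 and 20.1 TPM with DMSO. The 4411-base coding transcript stood at 5.68 and 5.19 TPM with MS1943 and at 5.56 and 6.51 TPM with DMSO. All 3308 bases of the first are also in the second, so reads within them fit both. With protein-coding transcripts alone the change of PNPT1 was -0.011 (adjusted p = 0.919), and with an allowance for transcript length it was 0.26 (adjusted p = 0.065), so the call holds for the sum of its transcripts and not for the coding class.

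**Figure D4:**
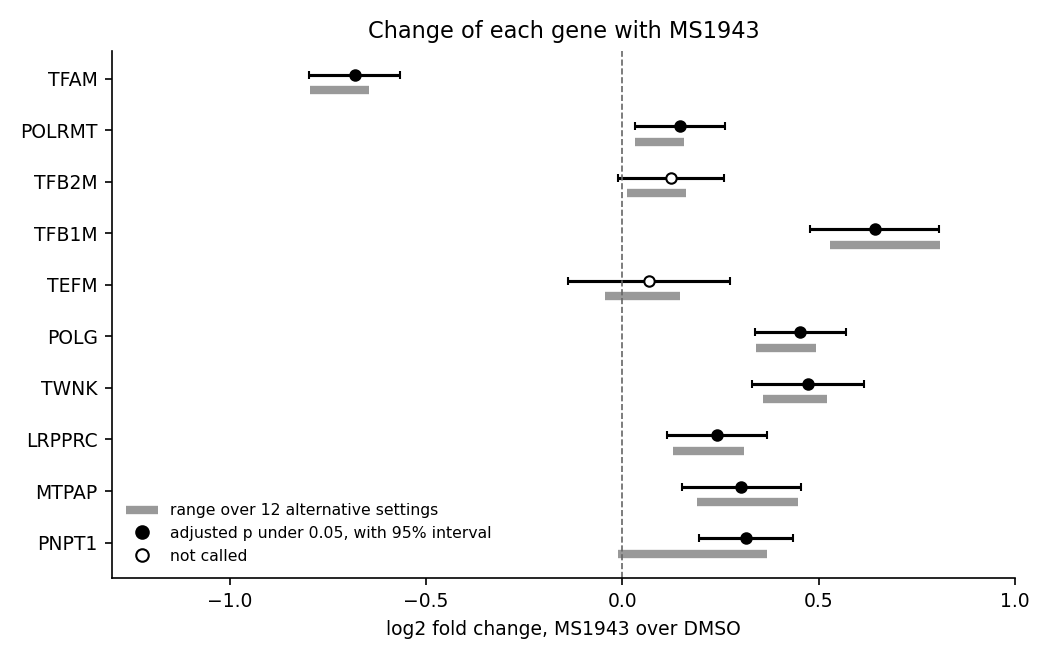
Log2 fold change, MS1943 over DMSO (x axis), of each gene with its 95% interval (black; filled where adjusted p is under 0.05) and the range over 12 alternative settings (grey). TFAM lies at -0.68, TFB1M at 0.64, and the grey bar of PNPT1 reaches -0.011.

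The order of the genes by level changed little. In TPM per gene, LRPPRC came first with MS1943 (107 ± 3.99) and with DMSO (97.6 ± 2.49), and TFAM came second with MS1943 (53.2 ± 0.78) and with DMSO (89.7 ± 0.02; SD, n = 2 each). PNPT1 followed at 44.2 ± 0.61 TPM with MS1943 and 39.8 ± 6.57 TPM with DMSO. MTPAP was lowest, at 12.6 ± 0.48 TPM with MS1943 and 9.98 ± 1.79 TPM with DMSO, next to TEFM at 14.1 ± 0.24 TPM with MS1943 and 14.8 ± 0.59 TPM with DMSO. With MS1943 only TFB2M and POLRMT, neighbours in that order, overlapped in their library ranges; with DMSO the neighbours TWNK and POLG, POLG and TFB2M, and TFB2M and POLRMT overlapped. TFB1M stood above TFB2M with MS1943 (26.8 ± 1.68 TPM) and below POLRMT with DMSO (16.4 ± 0.48 TPM). These levels depend on short annotated forms: counting only transcripts of 900 bases or more, a limit chosen after the values were seen, TWNK stood at 12.7 ± 1.19 TPM with MS1943 and 10.7 ± 0.32 TPM with DMSO and took the eighth place in both groups in place of the fourth. Under that limit TFB1M stood at 16.4 ± 0.10 TPM with MS1943 and 12.2 ± 0.41 TPM with DMSO. It was then seventh in both groups, below TFB2M and POLRMT.

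The RNA made by this machinery was higher with MS1943 in these libraries, which were selected on poly(A) tails. The values, those of the ribosomal RNAs included, are of the captured RNA only. All 13 mitochondrially encoded mRNAs and both ribosomal RNAs were called higher (background 30.0%), with a median log2 fold change of 0.90 over the mRNAs. The 13 mRNAs took 6.21% and 5.61% of all TPM with MS1943 and 3.22% and 3.54% with DMSO. MT-ND6, the mRNA of the light strand, had 1566 and 1360.2 CPM with MS1943 and 521 and 606 CPM with DMSO (log2 fold change 1.38 ± 0.08, adjusted p = 1.76e-11). MT-RNR2, the large ribosomal RNA, had 6711 and 5384 CPM with MS1943 and 1623 and 1422 CPM with DMSO (log2 fold change 1.99 ± 0.09, adjusted p = 8.82e-13). MT-ND4 (1.26 ± 0.08), MT-ND5 (1.27 ± 0.08) and MT-ND4L (1.14 ± 0.07) rose as well, and MT-CYB rose least (0.34 ± 0.07). Human MT-ND6 RNA is known to lack a stable poly(A) tail, so a library selected on tails samples it incompletely, and without strand its reads cannot be told apart from antisense RNA. TFAM and the mitochondrial transcripts moved in opposite directions in the same libraries.

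Other genes of mitochondrial DNA maintenance went both ways. Of 14 listed, all tested, 8 were called higher and 3 lower, with a median log2 fold change of 0.16. Of all tested genes, 30.0% were called higher and 29.4% lower. SSBP1, which coats single-stranded mitochondrial DNA, had 106 and 110.0 CPM with MS1943 and 94.8 and 83.6 CPM with DMSO (log2 fold change 0.28 ± 0.06, adjusted p = 0.000685). POLG2, the accessory subunit of POLG, had 7.55 and 7.96 CPM with MS1943 and 7.67 and 7.25 CPM with DMSO, which overlap (0.05 ± 0.10, adjusted p = 0.667). The nucleoid-associated ATPase genes ATAD3A (0.55 ± 0.05) and ATAD3B (0.42 ± 0.07), near-identical copies whose split is uncertain, rose, as did METTL4 (0.53 ± 0.06) and the exonuclease gene MGME1 (0.18 ± 0.06). DNA2, a nuclease and helicase of both nucleus and mitochondria, fell by 1.20 ± 0.08 on the log2 scale. Without TMM scaling 4 rather than 8 of the 14 were called higher and 3 lower. Over all 19358 tested genes, 4619 were then called higher and 6973 lower. The lower counts of the next lists then were 6 for nucleotide supply and 4 for other transcription genes. They were 7 for RNA processing, 5 for RNA stability and 4 for regulators.

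Of 10 genes that supply mitochondrial nucleotides, 2 were called higher and 3 lower (median -0.05, background 30.0% higher and 29.4% lower). TYMP, thymidine phosphorylase, which breaks thymidine down, rose most, at 17.3 and 15.8 CPM with MS1943 against 4.50 and 4.79 CPM with DMSO (1.83 ± 0.09), and the pyrimidine carrier gene SLC25A36 rose by 0.46 ± 0.05. The thymidine kinase gene TK2 (-0.35 ± 0.08) and the ribonucleotide reductase subunit gene RRM2B (-0.35 ± 0.07) fell. Of 5 other transcription genes, 0 were called higher and 2 lower (background 30.0% and 29.4%). Those lower were the ribosomal protein gene MRPL12 (-0.37 ± 0.05), whose protein has been reported to bind POLRMT, and the transcription termination factor family gene MTERF3 (-0.27 ± 0.09). At an unadjusted p under 0.05 still none of the 5 was higher, since all 5 had negative fold changes, and DESeq2 called 0 of them higher and 1 lower. With protein-coding transcripts only, 1 was called higher and 2 lower; the higher one was MTERF4, named after its value was seen (log2 fold change 0.49, adjusted p = 0.000614).

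Of 18 genes that cut and modify mitochondrial RNA, 9 were called higher and 5 lower (median 0.18, background 30.0% higher and 29.4% lower). The RNA methyltransferase gene NSUN4 (0.89 ± 0.06), the tRNA modification genes MTO1 (0.90 ± 0.06) and TRIT1 (0.60 ± 0.06) and the tRNA 3′ end nuclease gene ELAC2 (0.40 ± 0.06) rose. The 5 called lower were MRM1 (-0.38 ± 0.10), MRM2 (-0.25 ± 0.05), TRMT10C (-0.23 ± 0.06), PRORP (-0.22 ± 0.06) and HSD17B10 (-0.19 ± 0.06). Of 12 genes of mitochondrial RNA stability and decay, 4 were called higher and 2 lower (median 0.00, same background). SUPV3L1, the helicase that works with PNPT1, had 84.1 and 88.0 CPM with MS1943 and 47.96 and 45.3 CPM with DMSO (0.88 ± 0.06, adjusted p = 1.05e-10). REXO2, an oligoribonuclease gene that clears short RNAs, rose by 1.14 ± 0.06 and FASTKD2 by 0.55 ± 0.06, while FASTKD3 fell by 0.59 ± 0.08. SLIRP, the binding partner of LRPPRC, had 25.9 and 32.6 CPM with MS1943 and 31.7 and 28.2 CPM with DMSO and was not called (-0.04 ± 0.09, adjusted p = 0.717).

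Among 10 nuclear regulators of mitochondrial biogenesis, 4 were called higher and 2 lower (median 0.03, background 30.0% higher and 29.4% lower). NRF1 itself had 22.9 and 20.1 CPM with MS1943 and 21.5 and 21.7 CPM with DMSO, which overlap (log2 fold change -0.0043 ± 0.07, adjusted p = 0.967). The GABP subunit gene GABPA was called lower (-0.17 ± 0.06, adjusted p = 0.0134) and its partner gene GABPB1 higher (0.31 ± 0.08). The coactivator gene PPARGC1A was low but higher with MS1943, at 2.75 and 2.56 CPM against 1.22 and 1.20 CPM with DMSO (1.14 ± 0.18), and its relative PPRC1 rose by 0.55 ± 0.06. MYC, a transcription factor gene that also acts on growth genes at large, had 264 and 271 CPM with MS1943 and 96.3 and 93.1 CPM with DMSO (1.498 ± 0.06, adjusted p = 3.40e-14).

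**Figure D5:**
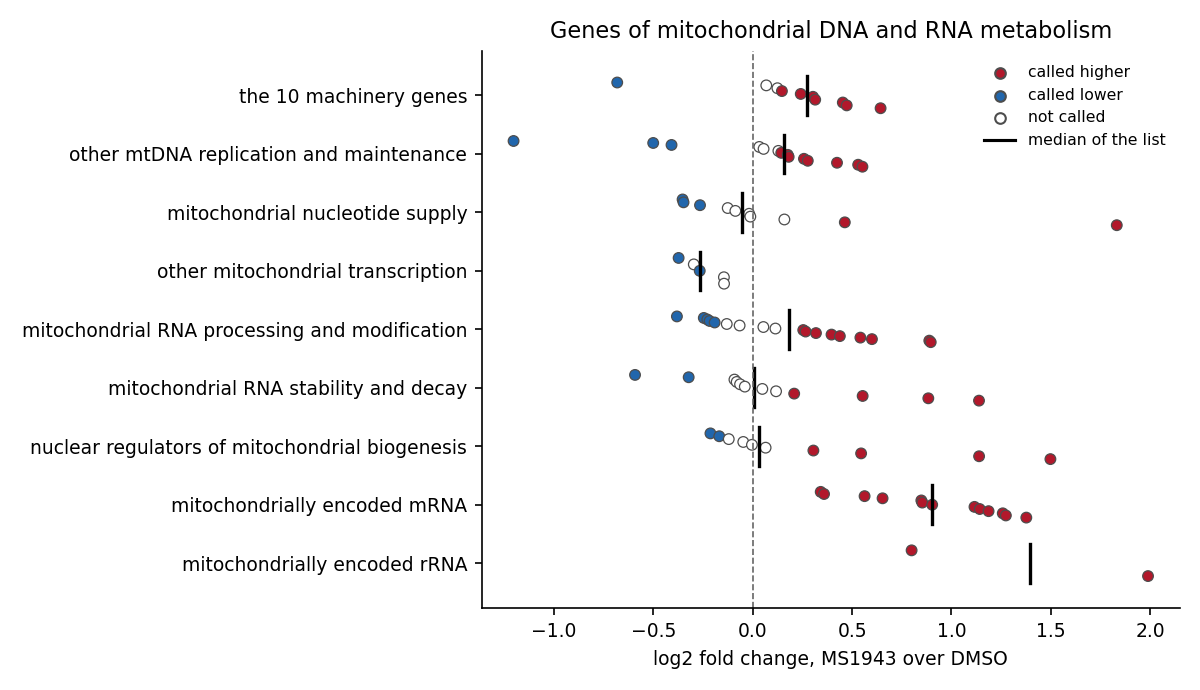
Log2 fold change, MS1943 over DMSO (x axis), of each tested gene (points, coloured by call) in the 10 machinery genes and 8 related lists, with the median of each list (black line). TFAM is the only called-lower point of the top row, and the 13 mitochondrial mRNAs all lie right of 0.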

How the data were processed

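RNA was taken from MDA-MB-468 cells given MS1943 (2 libraries) or DMSO (2 libraries), grouped by the treatment label; libraries were numbered in accession order. Per the labels' protocols, poly(A) RNA went into a TruSeq v2 kit, which does not mark strand. The submitters' processing notes list Salmon 0.9.1, DESeq2, R 3.4.3 and build hg38. Which transcript set and which Salmon options were chosen is not given in the sources used here. Per the file headers, the authors deposited an estimated count of reads and a length-scaled TPM value for each transcript. Effective lengths from the same deposited files entered only the length allowance.

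Of 197653 transcripts, 193505 matched GENCODE 29 by identifier without version (Y copies of pseudoautosomal transcripts merged with the X copies). The other 4148 held 0.482% to 0.496% of reads and were left out. Of the 66 transcripts of the 10 genes, 6 differ in length from GENCODE 29, so the authors' release was another one. Estimated counts were summed per gene and rounded. Genes were tested by quasi-likelihood F test in edgeR 4.0.16 (R 4.3.3, TMM, filterByExpr, treatment alone), with Benjamini-Hochberg adjustment over 19358 genes and calls at 0.05; the common biological coefficient of variation was 0.0478. SE is the log2 fold change divided by the square root of F. Intervals cover the spread between libraries, not read assignment. The alternatives, leaving out each library among them, are given in the closing section.

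The genes, the related lists and the naming rule (all 10 genes, the 4 smallest adjusted p values called in each list, and a few fixed partners, regulators and templates) were chosen with earlier results of these data known. CD68, CD14, the epithelial and basal markers, the RNA processing genes called lower and the genes overlapping the 10 were named after their values were seen. The chi-square per degree of freedom of counts was 5.86 within the MS1943 pair and 6.33 within the DMSO pair, so neither pair was taken for a duplicate deposit of the same library.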

Additional observations from a re-analysis of the deposited data

How the results depend on the processing

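Under 12 alternatives (DESeq2 size factors, total reads, DESeq2's Wald test, no filter, at least 1 CPM in a group, transcript length offsets, protein-coding transcripts only, no mitochondrially encoded genes, and each library left out), TFAM stayed lower (log2 fold change -0.80 to -0.65) and TFB1M (0.53 to 0.81), POLG (0.34 to 0.49), TWNK (0.36 to 0.52), LRPPRC (0.13 to 0.31) and MTPAP (0.19 to 0.45) stayed higher with adjusted p under 0.05, while TFB2M and TEFM were never called. The number called higher was 5 to 7 and the number called lower 1 throughout. POLRMT lost its call under 7 (0.03 to 0.15; adjusted p = 0.0628 to 0.569): total reads, DESeq2's test, no filter, length offsets, and without DMSO replicate 2, MS1943 replicate 1 or MS1943 replicate 2. PNPT1 was not called with length offsets (0.26) and turned to -0.011 with protein-coding transcripts only, where most of its reads, being in a class other than coding, are dropped. With DESeq2's Wald test 4889 genes were called higher and 4503 lower, against 5799 and 5689 by edgeR, and leaving out a library gave 4986 to 5730 higher and 5130 to 5624 lower. A library left alone in its group was assumed to vary like the other group. No paired analysis was possible because the labels give no replicate numbers that tie an MS1943 library to a DMSO library. With 2 libraries per group an exact permutation test cannot go below p = 0.333, so transcript shares are given without a test.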
